A study of Mus musculus with 8 samples.

Results

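Complex III, complex IV and ATP synthase are the last enzymes of mitochondrial oxidative phosphorylation. Their nuclear-encoded subunits were followed in the diaphragm of normal and dystrophic mice. All probe sets with a single annotated gene symbol starting with Uqcr, Cox4, Cox5, Cox6, Cox7, Cox8 or Atp5, or equal to Cyc1, were taken. This gave 42 of 12393 genes with such a probe set, and 76 of 22690 probe sets: 16 probe sets of 9 genes for complex III, 32 of 16 genes for complex IV and 28 of 17 genes for ATP synthase. The animals were 8-week-old dy/dy mice, which are deficient in laminin α2, a protein of the muscle fibre's basement membrane, and 8-week-old mice labelled normal. Neither strain background nor sex is stated in the labels. Each group had 4 Affymetrix arrays, and each array held diaphragm RNA pooled from 3 mice, 12 mice per group, so the spread between single mice is not seen.

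Complex III passes electrons from ubiquinol to cytochrome c, and complex IV, cytochrome c oxidase, passes them from cytochrome c to oxygen. Both pump protons out of the mitochondrial matrix, and ATP synthase uses the returning protons to make ATP. The diaphragm contracts without rest and is rich in mitochondria. Some complex IV subunits exist as a heart and muscle isoform and as a liver-type isoform found in most tissues.

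No member passed the test. Of the 76 probe sets, 68, for 40 genes, were bright enough to be tested, and 0 of 68 had a limma adjusted p under 0.05. Over all 13575 probe sets tested the share past this threshold was 0.494%, with 0.457% higher and 0.0368% lower. At an unadjusted limma p under 0.05 there were 3 members, all lower in dystrophic pools. The share at that level over all probe sets tested was 9.72%, with 4.13% lower and 5.6% higher. They were 2 probe sets of Uqcr10, a small subunit of complex III, and 1 of Cox5a, a subunit of complex IV. In simulated data for this comparison over 13575 probe sets the same fit recovered 10 of 50 probe sets changed 1.5-fold and 38 of 50 changed 2-fold.

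Values below are MAS5 signals rescaled so that all arrays had the same trimmed mean. Log2 differences are dystrophic less normal, computed on log2(signal + 16). Signals of different probe sets are not set against each other as transcript amounts, because each probe set has its own response.

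Lama2, the gene of laminin α2, separated the groups as labelled, at 749 to 982 in normal and 232 to 333 in dystrophic pools. The median signal per array lay between 172 and 207. The arrays were cut into 3 levels of poly-A spike-in signal at its widest gaps, so the number of levels was set and not found. These levels were balanced between groups. The high level, 543 to 588, held both replicates 1, the middle level, 307 to 354, both replicates 3, and the low level, 125 to 172, the other 4 arrays. Normal replicate 4 was deposited at a trimmed mean of 400.2, against 500.2 on the other arrays. Its ratio of 3' to 5' signal was the highest of the 8 arrays for both actin, at 1.07, and Gapdh, at 0.937. The lowest were 0.833 and 0.729.

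Below are 250 bases before the annotated start site of 3 genes, from RefSeq on GRCm38.p6, each 5′ to 3′ on the gene's strand. Uqcr10 is shown because 2 of its 3 probe sets had the smallest p-values of all members. Cox6a1 and Cox8b are shown as a liver-type and a muscle isoform of complex IV. Uqcr10 lies on the minus strand, at chr11:4704345-4704594, Cox6a1 on the minus strand, at chr5:115348959-115349208, and Cox8b on the minus strand, at chr7:140900447-140900696. Capitals mark the motifs found on either strand.
Uqcr10: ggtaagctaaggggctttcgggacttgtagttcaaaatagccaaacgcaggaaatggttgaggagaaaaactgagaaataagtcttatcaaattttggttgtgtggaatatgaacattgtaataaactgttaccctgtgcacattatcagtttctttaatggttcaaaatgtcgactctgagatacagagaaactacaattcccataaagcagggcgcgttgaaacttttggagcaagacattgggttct
Cox6a1: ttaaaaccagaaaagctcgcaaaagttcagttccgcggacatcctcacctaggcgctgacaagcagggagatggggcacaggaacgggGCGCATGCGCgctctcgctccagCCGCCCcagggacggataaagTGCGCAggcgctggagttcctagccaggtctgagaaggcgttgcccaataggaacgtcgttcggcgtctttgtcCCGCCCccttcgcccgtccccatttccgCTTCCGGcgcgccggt
Cox8b: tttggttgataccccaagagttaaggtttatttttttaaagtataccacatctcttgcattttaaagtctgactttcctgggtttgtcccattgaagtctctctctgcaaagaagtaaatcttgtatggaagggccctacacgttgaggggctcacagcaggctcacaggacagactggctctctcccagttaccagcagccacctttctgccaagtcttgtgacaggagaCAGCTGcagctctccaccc

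Of 42 member genes, 31 matched a promoter sequence. The motifs searched, on both strands, were a palindromic 10-base NRF1 motif, the first run of capitals in the Cox6a1 window, and the shorter TGCGCA, also for NRF1, CCGGAAG for GABPA, AAGATGGC for YY1, GGGCGG for the GC box, CAGCTG for the E-box, a palindromic 10-base MEF2 motif and the TATAAA of the TATA box. NRF1 and GABPA are transcription factors known for nuclear genes of the respiratory chain. The long NRF1 motif occurred in 3 of the 31 windows (9.68%) and in 0.781% of all 27025 windows of this length. CCGGAAG occurred in 7 of 31 (22.6%) against 7.05%, and TGCGCA in 5 of 31 (16.1%) against 6.66%. GGGCGG occurred in 10 of 31 (32.3%) against 32.9%, CAGCTG in 2 (6.45%) against 12.8%, TATAAA in 2 (6.45%) against 13.0%, the MEF2 motif in 1 (3.23%) against 3.23% and AAGATGGC in 0 against 1.59%. The Cox6a1 window held both NRF1 motifs, the GABPA motif and 2 GC boxes, some of them on the opposite strand, the Cox8b window 1 E-box close to the start site, and the Uqcr10 window none of these letters. Both NRF1 motifs, the E-box and the MEF2 motif read the same on both strands.

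The members lay slightly below normal as a group. Of 68 tested probe sets, 57 had a log2 difference below 0, or 83.8%, against 52.3% of all probe sets tested, and the median was -0.15, against -0.01 over all. Under quantile normalization 43 of 68 lay below 0 and the median was -0.04. The medians were -0.19 for complex III, with 14 of 15 below 0, -0.13 for complex IV, with 20 of 27, and -0.15 for ATP synthase, with 23 of 26. Under quantile normalization these were -0.08, 0.010 and -0.026, so the direction for complex IV turned. On the values as deposited, where normal replicate 4 lacks its factor of 1.22, they were -0.11, -0.048 and -0.073, with 50 of 68 members below 0 and a median of 0.065 over all probe sets tested. With array weights the ATP synthase median was -0.095. In bulk muscle RNA, fewer fibres and less of a transcript per fibre cannot be told apart.

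**Figure D1:**
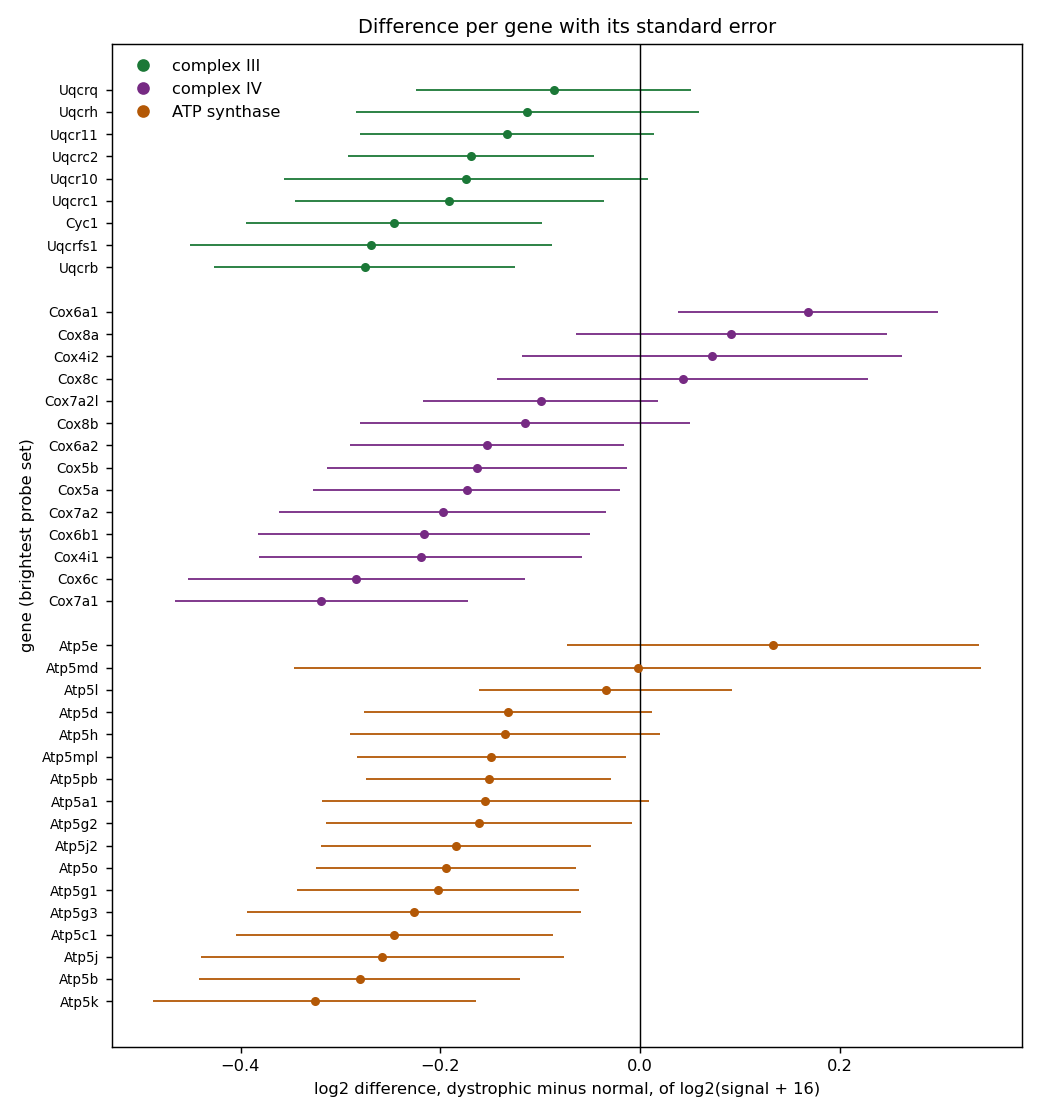
The log2 difference, dystrophic minus normal, on the horizontal axis for the 40 tested genes, each by its brightest probe set, coloured by complex. Points are limma estimates and bars their standard error (4 pools per group), and 35 of 40 genes lie below 0.

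The size of the medians rested on few arrays. Normal replicate 4 had the highest signal of all 8 arrays for 46 of 68 tested members, or 67.6%, against 17.7% of all probe sets tested. For 62 of 68 the highest signal lay on a normal array, against 55.5%. Dystrophic replicate 3 had the lowest signal for 30 of 68, against 14.8%. Over the tested genes, the mean level on the log2 scale was 13.17, 13.04, 13.21 and 13.49 in normal replicates 1 to 4 and 13.17, 13.05, 12.97 and 13.13 in dystrophic replicates 1 to 4. Apart from normal replicate 4, the highest, and dystrophic replicate 3, the lowest, the pools of both groups covered the same range. Without normal replicate 4 the median over the members was -0.06, with 53 of 68 below 0. Without both normal replicate 4 and dystrophic replicate 3 it was -0.03, with 45 of 68 below 0. Both pools are the extremes by these same members, so leaving them out draws the difference towards 0 by construction.

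Without normal replicate 4 the medians of complex III, complex IV and ATP synthase were -0.13, -0.035 and -0.076. Without that array and dystrophic replicate 3 they were -0.071, -0.00056 and -0.027. They were -0.10, -0.11 and -0.12 without dystrophic replicate 3 alone, -0.27, -0.22 and -0.21 without normal replicate 1, and -0.26, -0.21 and -0.23 without normal replicate 2. With 1 array per group at the high and middle spike-in levels, and 2 per group at the low one, the median over all members was -0.19 at the low, -0.26 at the middle and 0.0045 at the high level. For complex III these were -0.25, -0.35 and -0.035, for complex IV -0.16, -0.22 and 0.0033, and for ATP synthase -0.18, -0.25 and 0.032. At the high level, which holds replicate 1 of both groups, the median difference was therefore close to 0 in each of the complexes.

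**Figure D2:**
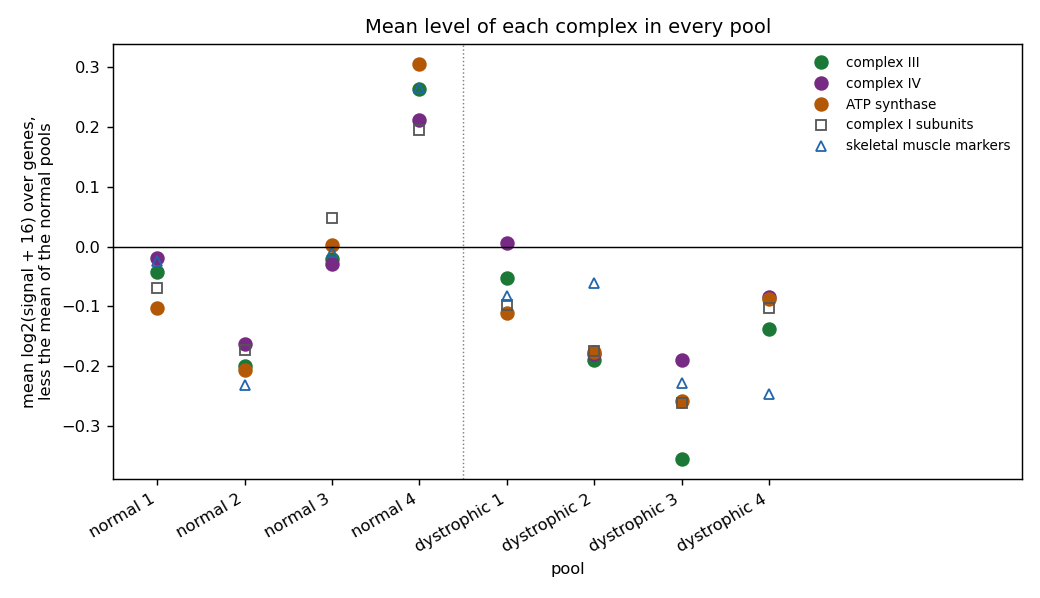
Mean log2(signal + 16) over the tested genes of each complex in every pool, less the mean of the 4 normal pools. Complex I subunits, taken by their Nduf symbol, and skeletal muscle markers are shown for comparison. Normal replicate 4 lies highest and dystrophic replicate 3 lowest for all 3 complexes, and the other pools of both groups overlap.

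Most members were among the brightest probe sets of the array: 47 of 76 lay in the top 2% by mean signal and 57 in the top 5%. On normal replicate 4 bright probe sets in general stood higher. For the 517 tested probe sets of other genes with a mean signal over 5000, this array lay above the mean of the other normal pools by a median of 0.31 on the log2 scale. For the 51 members above that signal the median was 0.39, and over all tested probe sets it was -0.04. Of the 517 other bright probe sets, 361, or 69.8%, lay below 0 in dystrophic against normal pools, with a median of -0.10, against 49 of 51 and -0.17 for the bright members. Without normal replicate 4, these medians were -0.04 for the 517 and -0.07 for the 51. The part of signal brightness in the members' differences was not tested.

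**Figure D3:**
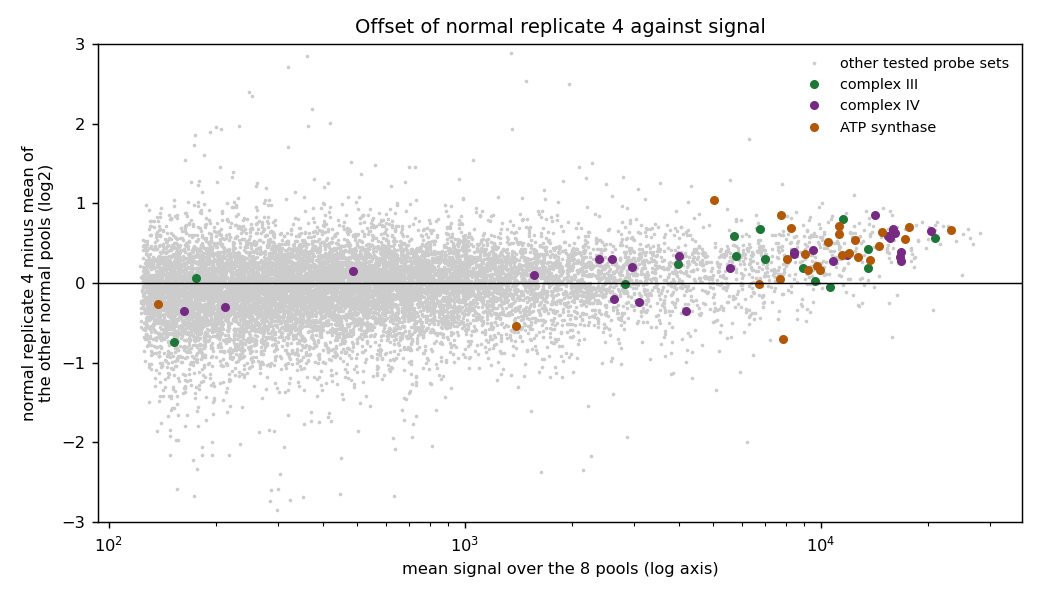
Normal replicate 4 minus the mean of the other 3 normal pools (log2, vertical axis, limited to -3 to 3, which leaves out 4 probe sets) against the mean signal over 8 pools (log axis), for the 13575 tested probe sets. Members, in colour, gather at high signal, where most probe sets lie above 0.

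In complex III the nuclear-encoded catalytic subunits are Cyc1, which carries the haem of cytochrome c1, and Uqcrfs1, the Rieske iron-sulphur protein. Cyc1 had signals of 12260, 12444, 16311 and 18276 in normal and 12551, 12094, 11430 and 13234 in dystrophic pools. Normal replicates 3 and 4 stood above all dystrophic pools, while normal replicates 1 and 2 lay among them. Its log2 difference was -0.25 (SE 0.15, limma adjusted p = 0.647). Uqcrfs1 was at -0.27 (SE 0.18), with 18862 in normal replicate 4 and 9569 to 11220 in the other 7 pools.

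Uqcrc1 and Uqcrc2 are the core proteins of complex III, on its matrix side. Uqcrc1 had 16479, 12480, 13154 and 15858 in normal and 15993, 11913, 10450 and 12684 in dystrophic pools. The groups overlapped, and replicate 1 was high in both. Its log2 difference was -0.19 (SE 0.15, limma adjusted p = 0.754). Uqcrc2 was at -0.17 and -0.26 on its 2 probe sets.

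Uqcrb, a small subunit that helps bind ubiquinone, had 20824, 19338, 21892 and 30566 in normal and 20511, 19068, 17829 and 17987 in dystrophic pools. Normal replicate 4 stood far above the other 7, which lay between 17829 and 21892. The log2 difference was -0.28 (SE 0.15, limma adjusted p = 0.598). Uqcrq, another small subunit, had 10958, 8429, 10376 and 10021 in normal and 11176, 8591, 8149 and 9649 in dystrophic pools. These groups overlapped throughout, at -0.09 (SE 0.14), and under quantile normalization at 0.0044. Its 2 other tested probe sets were at -0.05 and 0.01, with signals of at most 251. Uqcrh, the hinge protein, was at -0.11 (SE 0.17), and Uqcr11 at -0.13 (SE 0.15).

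Uqcr10, chosen for this account after its values were seen, is a small subunit of complex III. It has 3 probe sets, which did not behave alike. Probe set 1434340_at had 3899, 3296, 3204 and 3416 in normal and 2455, 2278, 1639 and 2418 in dystrophic pools. All 4 dystrophic pools lay below all 4 normal pools, and dystrophic replicate 3 was lowest. Normal pools averaged 3454 ± 309 (SD, n = 4) and dystrophic pools 2198 ± 380 (SD, n = 4). Dystrophic less normal, the log2 difference was -0.66 (SE 0.15, limma adjusted p = 0.0979, 95% interval of the difference -0.99 to -0.34). By exact permutation, two-sided, p was 0.0286, and no smaller value is possible with 4 pools per group. Any probe set whose groups do not overlap has this exact p. It is not adjusted for the choice of the probe set after its values were seen.

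Probe set 1434341_x_at had 5080, 4375, 4113 and 5328 in normal and 3595, 3333, 2491 and 3517 in dystrophic pools. Here too the groups did not overlap. The log2 difference was -0.55 (SE 0.15, limma adjusted p = 0.174). These were the only 2 of 68 tested members whose groups did not overlap, or 2.94%, against 2.53% of all probe sets tested that lay lower without overlap and 3.87% that lay higher. Both carry the same sequence accession in the platform annotation, so they are not independent, and the suffix x marks a probe set with probes that can match other sequences.

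The brightest Uqcr10 probe set, 1424364_a_at, had 7270, 5774, 5923 and 10036 in normal and 7533, 6045, 5372 and 6281 in dystrophic pools. These groups overlapped, and the difference was -0.17 (SE 0.18, limma adjusted p = 0.822) on the log2 scale. It turned to 0.067 without both normal replicate 4 and dystrophic replicate 3. Within each array, 1434340_at relative to 1424364_a_at differed between groups by -0.49 (SE 0.19, exact two-sided permutation p = 0.0857). Relative to its mean in normal pools this quantity was 0.14, 0.23, 0.15 and -0.52 in normal and -0.58, -0.37, -0.67 and -0.34 in dystrophic pools, so that normal replicate 4 lay among the dystrophic pools. For 1434341_x_at the same difference was -0.38 (SE 0.13, exact p = 0.0857). Both contrasts were made after the values were seen, and their p-values are not adjusted for this.

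The log2 difference of 1434340_at was -0.51, -0.96 and -0.66 at the low, middle and high spike-in level. Its groups do not overlap, so the sign at each level was fixed in advance and adds no separate evidence. With the spike-in level as a block 1434340_at passed, as the 1 member to do so (limma adjusted p = 0.0382). Over the other settings the adjusted p was 0.0542 to 0.271, with log2 differences from -0.72 to -0.53.

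**Figure D4:**
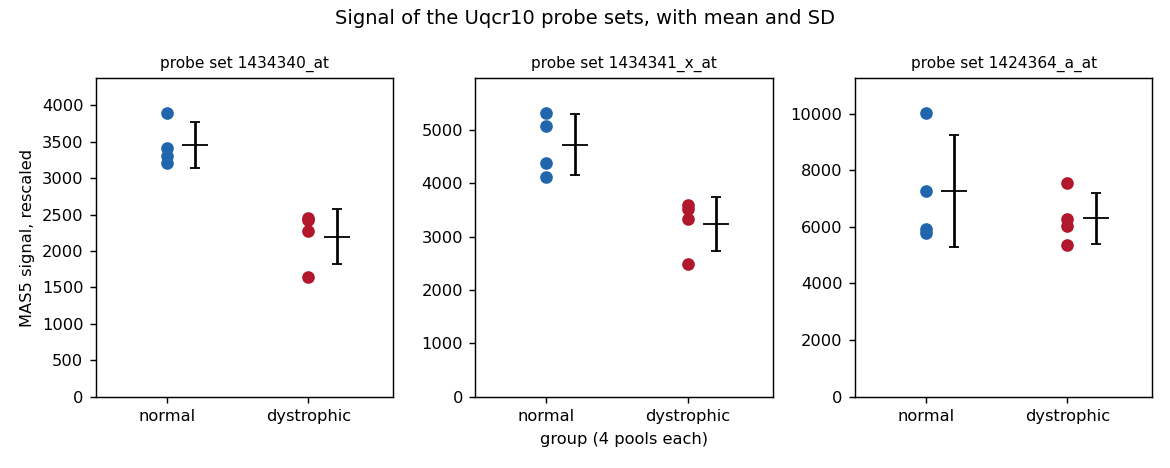
Rescaled MAS5 signal of the 3 Uqcr10 probe sets in 4 normal and 4 dystrophic pools, each panel with its own axis from 0, with mean and SD beside the points. The groups do not overlap for 1434340_at and 1434341_x_at, and overlap for 1424364_a_at.

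In complex IV, Cox4i1, Cox5a, Cox5b, Cox6b1 and Cox6c encode subunits used in most tissues, around the catalytic core that mitochondrial DNA encodes. Of their 13 tested probe sets, 12 lay below 0, with a median of -0.17. Cox6c had 20807, 19090, 19335 and 31016 in normal and 20657, 18604, 15512 and 18174 in dystrophic pools. Normal replicate 4 stood apart, and the other normal pools overlapped the dystrophic ones. Dystrophic pools differed from normal pools by -0.28 on the log2 scale (SE 0.17, limma adjusted p = 0.640).

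Cox5b had 14267, 15428, 20102 and 21592 in normal and 14220, 15963, 15980 and 16739 in dystrophic pools on its brightest probe set. Normal replicates 3 and 4 were high and the groups overlapped. The log2 difference was -0.16 (SE 0.15, limma adjusted p = 0.788), and 0.044 under quantile normalization. All 5 tested Cox5b probe sets lay between -0.17 and -0.09.

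Cox4i1, the widely used isoform of subunit IV, had 15544, 13285, 15980 and 22443 in normal and 15788, 14108, 12493 and 14467 in dystrophic pools. Normal replicate 4 was again the highest and the groups overlapped. The difference was -0.22 (SE 0.16, limma adjusted p = 0.724). Cox6b1 was at -0.22 on both of its probe sets.

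Cox5a had 3 tested probe sets of differing sign. The brightest, 1448153_at, had 14576, 14086, 16267 and 22091 in normal and 15139, 15194, 12890 and 15364 in dystrophic pools, at -0.17 (SE 0.15, limma adjusted p = 0.781) and at 0.024 under quantile normalization. Probe set 1415933_a_at, the third member with an unadjusted p under 0.05, was at -0.32 (SE 0.14, limma adjusted p = 0.506). Probe set 1439267_x_at was at 0.19 (SE 0.31), with 2206 in normal replicate 1 and 4615 to 7386 in the other 7 pools. The 3 probe sets of Cox5a did not share a direction.

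Cox6a2, Cox7a1 and Cox8b are the heart and muscle isoforms of complex IV, and all 3 lay below 0. Cox7a1 had 8493, 8429, 9204 and 11209 in normal and 6571, 8033, 6483 and 8891 in dystrophic pools. Dystrophic replicates 1 to 3 lay below all normal pools and dystrophic replicate 4 among them. The mean was 9334 ± 1298 (SD, n = 4) against 7495 ± 1172 (SD, n = 4), or -0.32 as a log2 difference (SE 0.15, limma adjusted p = 0.516).

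Cox6a2 had 19191, 14955, 16486 and 20342 in normal and 18278, 14493, 14710 and 16145 in dystrophic pools, which overlapped. Its log2 difference was -0.15 (SE 0.14, limma adjusted p = 0.783). Cox8b had 18384, 13477, 17378 and 20348 in normal and 19841, 15165, 12911 and 16375 in dystrophic pools, with the groups fully interleaved. It was at -0.12 (SE 0.17). Under quantile normalization the signs turned, to 0.049 for Cox6a2 and 0.070 for Cox8b.

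The liver-type partners did not share a direction. Cox6a1 had 4504, 3814, 4273 and 3269 in normal and 4538, 4758, 4401 and 4030 in dystrophic pools. Normal replicate 4 was the lowest of the 8, and the groups overlapped. Its log2 difference was 0.17 (SE 0.13, limma adjusted p = 0.744), the highest among the genes by their brightest probe set. Cox8a had 3905, 2597, 2934 and 2619 in normal and 3444, 2637, 3381 and 3272 in dystrophic pools, at 0.09 (SE 0.16). Cox7a2 had 15033, 13835, 16335 and 23596 in normal and 16022, 14238, 13586 and 14948 in dystrophic pools, at -0.20 (SE 0.16). Neither passed (limma adjusted p = 0.906 and 0.763).

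Cox4i2, an isoform of subunit IV known from lung and from low oxygen, was dim, with 258.5, 214.1, 179.8 and 171.3 in normal and 282.7, 197.3, 213 and 177.9 in dystrophic pools. The groups overlapped, at 0.07 (SE 0.19, limma adjusted p = 0.946). Cox8c, known from testis, was at 0.04 (SE 0.19). Cox7a2l, which joins complexes III and IV into a supercomplex rather than serving as a plain subunit, lay at -0.10 to -0.01 on its 3 probe sets.

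Whether a muscle isoform moved relative to its partner was tested within arrays, as the difference between both isoforms' log2 values, for 4 pairs. Cox6a2 less Cox6a1 differed between groups by -0.32 (SE 0.19, exact two-sided permutation p = 0.171). Relative to the normal mean it was -0.07, -0.19, -0.21 and 0.47 in normal and -0.15, -0.55, -0.42 and -0.16 in dystrophic pools. All 4 dystrophic pools lay below the normal mean, but only 2 lay below every normal pool. Normal replicate 4 alone set the normal mean above the other 3 normal pools, and without it the contrast was -0.16.

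Cox7a1 less Cox7a2 differed by -0.12 (SE 0.14), Cox8b less Cox8a by -0.21 (SE 0.21) and Cox4i2 less Cox4i1 by 0.29 (SE 0.28), with exact two-sided permutation p = 0.457, 0.4 and 0.371. Adjusted over the 4 pairs, p was 0.457 for each. Without normal replicate 4 these contrasts were -0.19, -0.066 and 0.068. At the low, middle and high spike-in level, Cox6a2 less Cox6a1 was -0.50, -0.21 and -0.08. Cox8b less Cox8a was -0.24, -0.63 and 0.29, Cox7a1 less Cox7a2 was 0.11, -0.24 and -0.46, and Cox4i2 less Cox4i1 was 0.24, 0.58 and 0.10. A missed threshold with errors of this size does not show that isoform use was the same.

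**Figure D5:**
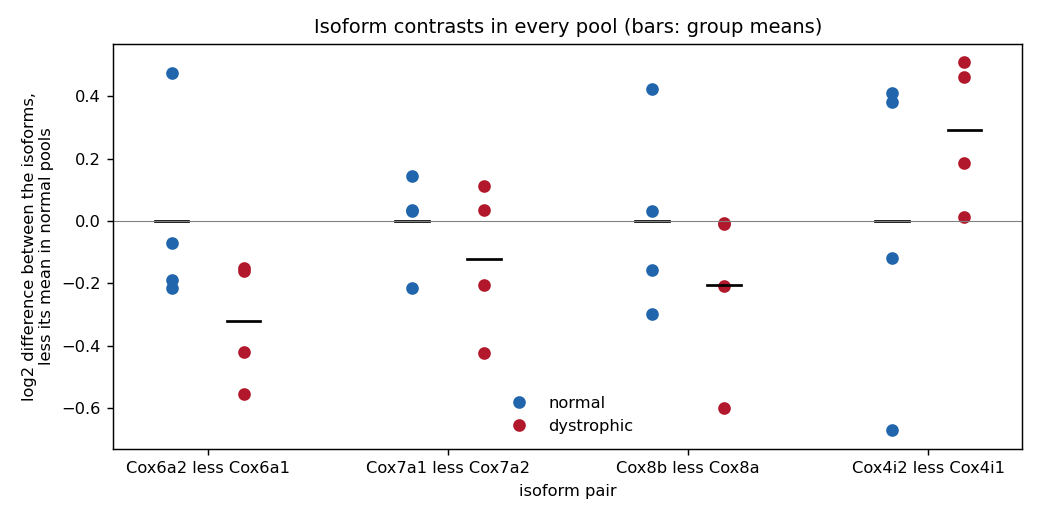
Within-array log2 difference between the isoforms of 4 pairs, less its mean in the normal pools, in 4 normal and 4 dystrophic pools, with bars at the group means. The groups overlap for every pair, and normal replicate 4 is the highest normal pool for Cox6a2 less Cox6a1 and Cox8b less Cox8a and the lowest for the other pairs.

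In ATP synthase the F1 head makes ATP on Atp5b, the catalytic β subunit, next to Atp5a1, the α subunit, around the γ shaft encoded by Atp5c1. Atp5b had 13546, 13662, 16279 and 22451 in normal and 13337, 13205, 12664 and 13921 in dystrophic pools. Normal replicates 3 and 4 lay above every dystrophic pool, and normal replicates 1 and 2 among them. The log2 difference was -0.28 (SE 0.16, limma adjusted p = 0.618).

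Atp5a1 had 21727, 20203, 22899 and 34371 in normal and 22979, 20138, 21882 and 22203 in dystrophic pools. Apart from normal replicate 4, all pools lay between 20138 and 22979. Its log2 difference of -0.15 (SE 0.16, limma adjusted p = 0.823) turned to 0.013 without normal replicate 4. A second Atp5a1 probe set was at -0.05.

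Atp5c1 had 19429, 14362, 17143 and 24642 in normal and 16891, 15049, 15015 and 15610 in dystrophic pools. The dystrophic pools lay close together, within the range of the normal ones. It was at -0.25 (SE 0.16, limma adjusted p = 0.676), and a dim second probe set, at 114 to 170, was at 0.07. Atp5d, the δ subunit, was at -0.13 and -0.10. Atp5e, the ε subunit, at 0.13 (SE 0.21), was the 1 ATP synthase gene above 0 by its brightest probe set. Its signal was lowest in normal replicate 4, at 5094, and 6469 to 9422 in the other pools.

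The ring of c subunits, which turns with the flow of protons, is encoded by Atp5g1, Atp5g2 and Atp5g3. Mature protein from these 3 genes is the same, and they differ in their mitochondrial import sequence. Atp5g3 had 15903, 16008, 18348 and 27183 in normal and 16708, 15858, 15386 and 16627 in dystrophic pools, at -0.23 (SE 0.17, limma adjusted p = 0.725). Normal replicate 4 stood apart and normal replicates 1 and 2 lay among the dystrophic pools. Atp5g1 was at -0.20 (SE 0.14) and Atp5g2 at -0.16 (SE 0.15).

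The peripheral stalk, which holds the head still, is formed by the products of Atp5pb, Atp5h, Atp5j and Atp5o. Of its 7 tested probe sets, 6 lay below 0, with a median of -0.15. Atp5o, also known as OSCP, had 15128, 12252, 14643 and 17038 in normal and 13805, 11670, 12474 and 13417 in dystrophic pools. The groups overlapped, at -0.19 (SE 0.13, limma adjusted p = 0.688), and its other probe set was at 0.02. Atp5j was at -0.26 (SE 0.18), Atp5pb at -0.15 (SE 0.12) and Atp5h at -0.14 (SE 0.16).

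Small membrane subunits of ATP synthase include Atp5k and Atp5l, the e and g subunits, which help the enzyme form dimers. Atp5k had 11630, 10285, 11630 and 17039 in normal and 10218, 10633, 8491 and 10401 in dystrophic pools. Normal replicate 4 was high and dystrophic replicate 3 low. For Atp5k the groups differed by -0.33 on the log2 scale (SE 0.16, limma adjusted p = 0.550), and its 2 other probe sets were at -0.29 and -0.25. Atp5l was at -0.03 (SE 0.13), Atp5j2 at -0.18 (SE 0.14) and Atp5mpl at -0.15 (SE 0.13). Atp5md, at -0.0025 (SE 0.34), spread widely in normal pools, from 2196 in replicate 1 to 8087 in replicate 4.

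Of 20 genes with several tested probe sets, 16 had all of them on the same side of 0. The other 4 were Atp5c1, Atp5o, Cox5a and Uqcrq. The 8 probe sets too dim to be tested had signals of 3.12 to 293 and belong to Atp5a1, Atp5g2, Cox5b, Cox6b2, Cox7c, Cox8a and Uqcrq. Cox7c, with both of its probe sets among them, and Cox6b2, known from testis, were left without a test. Several of these genes have processed pseudogene copies, and probe sets with an s or x suffix can match more than 1 transcript, so their values may hold more than the named gene.

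Neighbouring groups of mitochondrial genes lay in the same range, with no gene called. These lists were chosen from general knowledge with earlier results of these data known. Of 34 genes taken by their Nduf symbol as subunits of complex I, the entry enzyme for NADH, 33 lay below 0. Their median was -0.16, with 1 at an unadjusted limma p under 0.05. Ndufa4, at -0.02, was counted here by its symbol alone. All 4 complex II subunits lay below 0, with a median of -0.22 and 0 at that level. Of 25 tested assembly factors of complexes III, IV and ATP synthase, 20 lay below 0, with a median of -0.21 and 2 at an unadjusted p under 0.05, both lower. The 2 were Tmem70, an assembly factor of ATP synthase, at -0.43 (SE 0.15, limma adjusted p = 0.317), and Sco2, a copper chaperone of complex IV, at -0.55 (SE 0.22, limma adjusted p = 0.449).

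Tmem70 had 1824, 2654, 2359 and 1969 in normal and 1377, 1794, 1632 and 1653 in dystrophic pools. The groups did not overlap, although dystrophic replicate 2 came close to normal replicate 1. In these mitochondrial lists Sdha of complex II, Immt, Chchd3 and the regulator Gabpb1 also lay lower without overlap, and no gene lay higher. Over all probe sets tested, 2.53% lay lower without overlap. Of 13 electron carriers and inner membrane partners, 12 lay below 0, with a median of -0.18 and 3 at an unadjusted p under 0.05, all lower: Chchd3 and Immt, which shape the cristae, and the channel Vdac3. Of 16 regulators of mitochondrial biogenesis, 10 lay below 0, with a median of -0.07 and 0 at an unadjusted p under 0.05. Ppargc1a, a coactivator of mitochondrial genes, was at -0.37 (SE 0.22, limma adjusted p = 0.630).

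Of the lists for other cells and for regenerating fibres, 3 held markers that passed. All 6 regenerating fibre markers passed, all higher in dystrophic pools, with a median of 2.40. Of 8 tested macrophage markers 3 passed (Cd68, Mpeg1 and Ctss), all higher. In that list 7 lay above 0, among them Cd14 at only 0.08 (SE 0.22), and Cd163 lay below, at -0.35 (SE 0.26). The mean log2 level of the list, with the untested Itgam, ran from 8.41 to 8.89 in normal and from 9.19 to 9.41 in dystrophic pools. Of 8 fibroblast markers 3 passed (Col1a2, Lum and Postn), all higher. Here 7 lay above 0 and Thy1 below, at -0.27 (SE 0.15). The mean level of this list ran from 10.72 to 11.23 in normal and from 11.56 to 12.02 in dystrophic pools. In these 3 lists, groups did not overlap in mean level. Their part in the members' values was not tested.

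Skeletal muscle markers lay below 0 in 8 of 10, with a median of -0.21 and 0 called, 0 also at an unadjusted p under 0.05. Above 0 were Myh4, at 0.05 (SE 0.30), and Myh7, at 0.25 (SE 0.11, limma adjusted p = 0.520). The mean level of the list was highest in normal replicate 4, at 14.44, and 13.93 to 14.17 in the other pools. The liver list, with Apob, Fgb and Ahsg, which were too dim to be tested, had a mean log2 level of 11.95 in dystrophic replicate 3. This was the pool with the lowest members, and the other pools stood at 6.79 to 8.83. Of 6 tested liver markers 0 were called, with 3 at an unadjusted limma p under 0.05. The part of liver RNA in the members' values was not tested. Of the remaining lists limma called 0 of 3 adipocyte, 0 of 6 endothelial and 0 of 1 heart markers. Their medians were -0.05, -0.11 and 0.04, with 0, 1 and 0 at an unadjusted p under 0.05. The mean log2 level of the adipocyte list, with Ucp1 and Lep, which were too dim to be tested, differed between pools. It was 9.48 and 9.20 in normal replicates 3 and 4, and 8.00 to 8.83 in the other pools. The part of adipocytes in the members' values was not tested. No marker of any list was at 0 in the deposited values.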

How the data were processed

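Diaphragm RNA of 4 normal and 4 dystrophic pools was measured on Affymetrix arrays. The authors deposited 1 table of signal intensity on a linear scale, made with MAS5 per the submitters' processing notes (version not given in the sources used here). A factor per array brought its 2% trimmed mean to their common average, 487.7. Tests used log2(signal + 16). After leaving out 64 controls and the dimmest 40% of the others by mean log2 value, 13575 probe sets were tested. limma 3.58.1 in R 4.3.3 (lmFit, eBayes with an intensity trend) compared the groups, with Benjamini-Hochberg adjustment over all 13575 and a threshold of 0.05. Of several probe sets for a gene, the brightest on average stood for it. Isoform contrasts used exact permutation tests in Python 3.11.15. Precision is limited by having 4 arrays a group. Whether pools were processed independently is not stated. The p-values set a difference against the spread between these pools, which limma moderates over all probe sets tested.

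Per-pool values are given, by rule, for the 3 brightest genes of each complex and the 2 with the smallest p, both isoforms of 4 complex IV pairs, genes whose probe sets differ in sign, and any member past the threshold; Uqcr10, Tmem70 and single values of other members were added after their values were seen. Members, rule and lists were chosen with earlier results of these data known. The labels give no meaning for the replicate numbers. Deviations of pools numbered 1 to 4 correlated with those of the same number at 0.48, -0.046, 0.15 and 0.13, so the numbers were not treated as pairs throughout, although both replicates 1 and both replicates 3 shared a spike-in level. The fit was tested on simulated data. Alternatives to the offset, scaling, filter, variance model, blocks, arrays and threshold are given at the end.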

Additional observations from a re-analysis of the deposited data

Results flagged for a closer look

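Among 62 groups of 4 pools checked for a value far from the other 3, 2 stood out, and chance gives about 1 in 20. Cox6c in normal pools had 31016 in replicate 4 and 19090 to 20807 in the others, a gap of 0.856 of the whole range. Cox5a in dystrophic pools had 12890 in replicate 3 and 15139 to 15364 in the others, a gap of 0.909 of the range.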

How the results depend on the processing

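The count of members past the threshold stayed at 0 in all 8 fits without 1 array (0 to 0) and in every other alternative except the spike-in level as a block, where it was 1. The same blocked fit called 114 probe sets of the whole table, against 67, and the alternatives ranged from 25 to 127. With the replicate number as a block, 0 members passed, the smallest adjusted p was 0.0542 and 105 probe sets of the table were called, while only replicates 1 and 3 correlated best with their own number. The complex IV median moved to 0.010 under quantile normalization and to 0.0033 within the high spike-in level, and the ATP synthase median to 0.032 within that level. Leaving out 1 array gave medians of -0.27 to -0.10, -0.22 to -0.035 and -0.23 to -0.076 for complex III, complex IV and ATP synthase. Cox7a1 less Cox7a2 turned to 0.11 within the low spike-in level, and Cox8b less Cox8a to 0.29 within the high one and to 0.065 without both normal replicate 4 and dystrophic replicate 3. Without both of these, Atp5a1 was at 0.011, Cox7a2 at 0.0018, Cox8b at 0.065, Cox8a at -0.00056, Cox4i2 at -0.00037, Cox5a at 0.027 and Uqcr10 (1424364_a_at) at 0.067. Under quantile normalization Cox6a2 was at 0.049, Cox5b at 0.044, Atp5a1 at 0.050, Cox8b at 0.070, Cox5a at 0.024 and Uqcrq at 0.0044. With 1 array left out, Atp5a1 ran from -0.24 to 0.013 and Cox4i2 from -0.052 to 0.18, turning without normal replicate 4 or, for Cox4i2, also without dystrophic replicate 1. The contrast of Cox8b less Cox8a ran from -0.31 to -0.066, Cox7a2 from -0.29 to -0.035, Cox8a from 0.027 to 0.22 and Cox5a from -0.25 to -0.033. Leaving out replicate 1 of both groups was chosen after seeing the data and gave 0 calls. The cause of these turns was not tested.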
